A study of Rattus norvegicus with 6 samples.

Results

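The genes described here move glucose across the membranes of kidney tubule cells, phosphorylate it, break down fructose, or complete glucose synthesis. They were chosen by name, with earlier results of these data known and no measured value in the rule, and are Slc5a1, Slc5a2, Slc2a1, Slc2a2, Hk1, Hk2, Khk, Fbp1 and G6pc1. The transcript accessions of 19 probes named these 9 genes, out of 28206 probes that named 15645 genes. The tissue was renal cortex, from male rats of the Sprague-Dawley strain bought at 5 weeks of age, and each animal had 1 array of 1 colour. The 3 vehicle rats were given corn oil and the 3 treated rats received thiobis(6-tert-butyl-m-cresol) in its 4,4'- form, a sulfur-bridged phenolic antioxidant abbreviated TBBC. Its dose was 300 mg/kg/day, and dosing lasted 4 weeks in both groups. The replicates are biological, per the series' design text.

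As background, filtered glucose is taken back almost wholly by the proximal tubule. The cotransporter SGLT2, encoded by Slc5a2, takes up most of it in the early segments, SGLT1 (Slc5a1) takes up the rest further down, and GLUT2 (Slc2a2) and GLUT1 (Slc2a1) let it leave towards the blood. Proximal cells use little glucose themselves. They make it, and the phosphatases encoded by Fbp1 (fructose-1,6-bisphosphatase) and G6pc1 (glucose-6-phosphatase) act late in that route. They also break down fructose, which ketohexokinase (Khk) phosphorylates first. The hexokinases Hk1 and Hk2 start glycolysis, Hk1 in most cells and Hk2 in cells that respond to insulin, growth signals or low oxygen.

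The stretches below show where the letters of a known response element occur in the 250 bases upstream of these genes' starts (RefSeq, build GRCr8). The letters searched were ACGTG, the core of the hypoxia response element. Both strands were searched, and the match is in capitals, 5′ to 3′ along the gene.
Slc2a1, ACGTG, chr5:138002441-138002505, plus strand: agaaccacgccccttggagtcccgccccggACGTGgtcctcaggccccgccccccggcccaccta
Slc5a1, ACGTG, chr14:81843249-81843313, minus strand: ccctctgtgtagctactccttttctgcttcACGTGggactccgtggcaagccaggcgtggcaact
Hk1, ACGTG, chr20:30842283-30842322, minus strand: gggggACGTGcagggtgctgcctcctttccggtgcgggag
The 9 genes have 10 such windows, since Hk1 has more than 1 start. ACGTG was in 3 of the 10 and in 16.6% of all 33469 windows. In Slc5a1 the letters overlap a match on the opposite strand. The windows of Hk2 and Khk did not hold it. A match is a description of letters and not of a bound site.

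All 9 genes were measured. Of the 19 probes, 18 passed the filter on dim probes, which asks that a probe lie well above background on every array of at least 1 group, and each gene is represented by its brightest such probe. Values are log2 of the signal over the array's 75th percentile. On each array 67.1% to 70.9% of 61537 probes lay well above background, with the lowest share in TBBC 2, and the 75th percentile was a signal of 861 to 1038. The 3 vehicle arrays and TBBC 1 shared a slide, and TBBC 2 and TBBC 3 lay on another. Markers of cell types were looked at for detection. All 14 proximal tubule markers were bright enough to be tested, and each of the other 12 lists, for distal, glomerular, vascular, stromal, blood and injured cells, had at least 4 tested markers. Every list was thus detected, and no list for another tissue was looked at. Detection of these markers therefore does not check the label renal cortex.

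None of the 9 genes passed the test. With limma (adjusted over 32956 transcripts, threshold 0.05) 0 of 9 were called, against 0.531% of all transcripts, and 2 of 9 (22.2%) had an unadjusted p under 0.05, against 20.0% of all. In 2 genes, Hk2 and Khk, the groups did not overlap. Over all transcripts that share was 28.3%. The median log2 fold change of the 9 was 0.03, with 6 means higher and 3 lower in TBBC, and over all transcripts the median was -0.02 and 53.5% of means were lower. For 7 of the 9 the 95% interval of the difference lay within 2-fold in either direction, the exceptions being Hk2 and Slc2a2. In none of the 22 alternative settings was a member called.

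**Figure D1:**
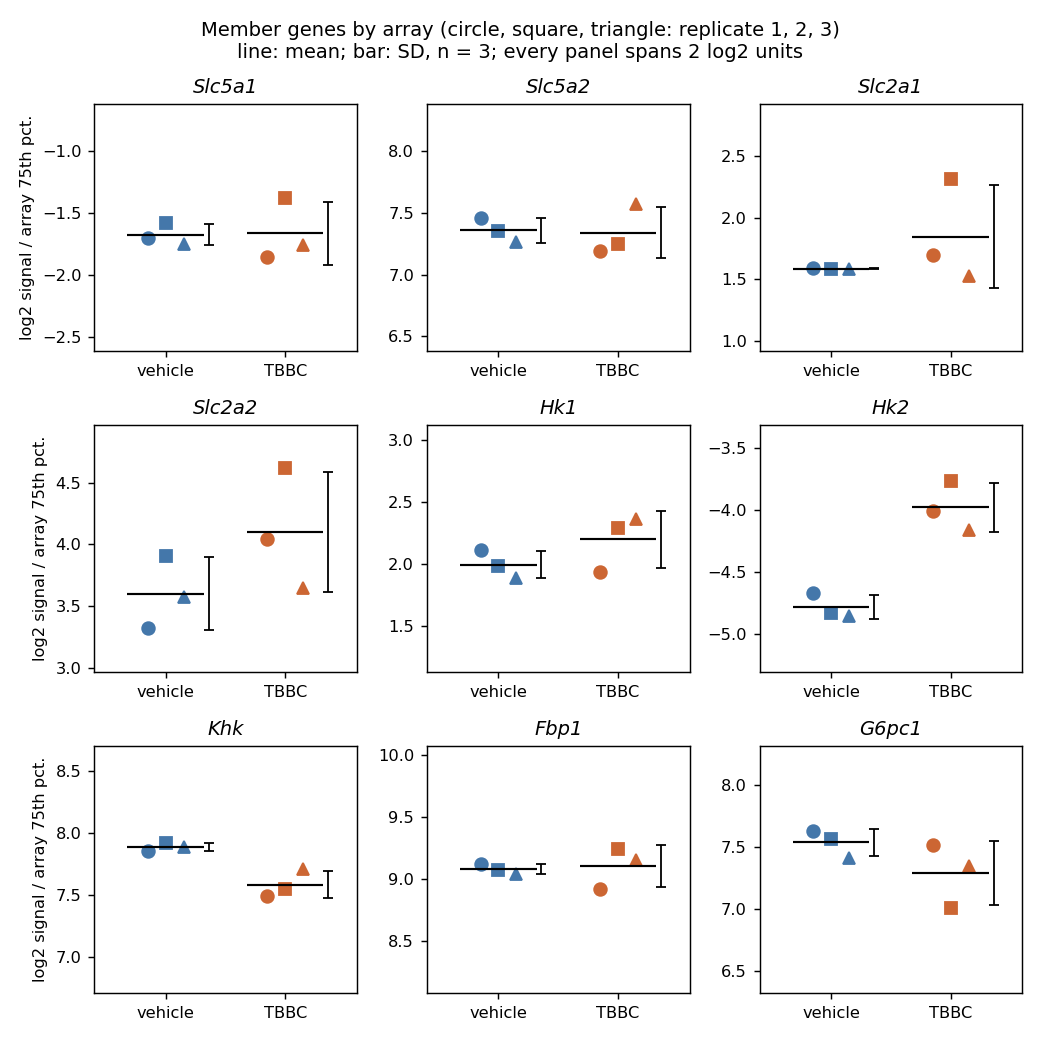
Log2 signal relative to the array's 75th percentile of the 9 genes, with each point 1 array, lines at the group means and bars for the SD (n = 3). Each panel has its own position and the same span. Hk2 lay higher and Khk lower in all TBBC arrays, while TBBC 2 lay above the other arrays for Slc2a1 and Slc2a2 and below them for G6pc1.

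The mRNAs of the sodium-glucose cotransporters were at nearly the same level in both groups. Slc5a2 was at 7.46, 7.35 and 7.26 in vehicle 1 to 3 and at 7.19, 7.25 and 7.57 in TBBC 1 to 3. The groups overlapped, with TBBC 3 the highest array and TBBC 1 and 2 the lowest. The log2 fold change was -0.02 ± 0.14 (SE), with a 95% interval of -0.36 to 0.31 (limma, adjusted p = 0.954), which is 0.781-fold to 1.24-fold. The other probes of Slc5a2 gave -0.07 both times. Its sign turned without vehicle 1, TBBC 1 or TBBC 2. On the shared slide alone the log2 fold change of Slc5a2 was -0.17.

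Slc5a1 was at -1.70, -1.58 and -1.75 in vehicle 1 to 3 and at -1.86, -1.38 and -1.76 in TBBC 1 to 3. TBBC 1 was the lowest array and TBBC 2 the highest. Its log2 fold change was 0.01 ± 0.15, with an interval of -0.36 to 0.38 (limma, adjusted p = 0.976), and it turned below 0 with normexp background correction. Its second probe gave -0.14. Within an array, the log2 ratio of Slc5a1 to Slc5a2 was 0.03 higher in TBBC (exact permutation test over samples, two-sided, p = 1.0; 0.1 is the smallest p that 3 against 3 allow). No unequal change of the cotransporters was detectable. These intervals bound the differences and do not show that the groups are alike.

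The facilitative transporters varied between the treated rats. Slc2a1, which encodes GLUT1, was at 1.59, 1.59 and 1.58 in vehicle 1 to 3, and at 1.70, 2.32 and 1.53 in TBBC 1 to 3. TBBC 2 lay above all others, TBBC 1 slightly above the vehicle rats, and TBBC 3 below them. A log2 fold change of 0.26 ± 0.21 was found with all arrays (limma, adjusted p = 0.544), against 0.02 without TBBC 2, 0.42 without TBBC 3 and 0.11 on the shared slide alone. Only 1 probe measured this gene.

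Slc2a2, which encodes GLUT2, was at 3.32, 3.91 and 3.57 in vehicle 1 to 3 and at 4.04, 4.61 and 3.65 in TBBC 1 to 3. TBBC 1 and 2 lay above every vehicle array and TBBC 3 within their range. GLUT2 mRNA had a log2 fold change of 0.50 ± 0.28, with an interval of -0.17 to 1.17 (limma, adjusted p = 0.369). It was 0.24 without TBBC 2, 0.73 without TBBC 3 and 0.44 on the shared slide alone. The other probes gave 0.57 and 0.39, so all 3 had the same sign. The log2 ratio of Slc2a1 to Slc2a2 within an array differed by -0.24 (exact permutation test, p = 0.3), and by -0.40 without vehicle 2 and -0.10 without vehicle 1. Over the 11 tested injured tubule markers, the median log2 difference from the vehicle mean was 0.30 in TBBC 1 and 2.06 in TBBC 3. TBBC 2 lay between them. The log2 summed level of the same markers was instead highest in TBBC 2, at 8.69, and lowest in TBBC 1, at 7.62. By the summed level, and not by the median, the rat with the highest transporter values was thus the highest. The part of injury in these values was not tested.

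Of the hexokinases, Hk2 had the largest difference of all 9 genes, and it did not pass. It was at -4.67, -4.83 and -4.85 in vehicle 1 to 3 and at -4.01, -3.77 and -4.16 in TBBC 1 to 3. All TBBC arrays lay above all vehicle arrays, TBBC 2 being the highest. Hk2 was 1.75-fold higher in mean (95% interval 1.39-fold to 2.20-fold; log2 0.81 ± 0.14), with an unadjusted p of 0.000864 and an adjusted p of 0.0677 (limma). It ranked 419 by p among the 32956 transcripts. The alternatives gave adjusted p-values of 0.0603 to 0.254, and with each array left out in turn the log2 fold change ran from 0.70 to 0.90. It was 0.78 on the shared slide, where TBBC 1 is the only treated array (adjusted p = 0.105).

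The Hk2 signal was weak. The probe's processed intensity was 35.9 to 39.0 in vehicle rats and 52.7 to 63.3 in TBBC rats, and it lay 1.05 to 1.95 log2 units above the lowest signal well above background on the same array. With normexp background correction and an offset of 50 the log2 fold change was 0.45. The second Hk2 probe was not well above background on any array, so it gives no fold. Injured tubule markers, of which 11 of 12 were tested, had a log2 summed level of 5.44 to 5.49 in vehicle rats. In TBBC rats it was 7.62 to 8.69, highest in TBBC 2. All 11 means were higher and 2 were past the threshold (Havcr1 and Spp1, named after their values were seen). Myeloid markers (9 of 10 tested, 0 past the threshold and 1 at an unadjusted p under 0.05 in limma) were at 6.51 to 6.82 and 6.38 to 7.59, highest in TBBC 3. Of the myeloid means 8 were higher and 1 lower in TBBC. The myeloid median log2 difference from the vehicle mean was -0.06, -0.12 and 0.89 in TBBC 1 to 3. The part of injured tubule and myeloid cells in the Hk2 value was not tested.

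Hk1 was at 2.11, 1.99 and 1.89 in vehicle 1 to 3 and at 1.93, 2.29 and 2.37 in TBBC 1 to 3. TBBC 2 and 3 lay above the vehicle range and TBBC 1 within it. Hk1 had a log2 fold change of 0.20 ± 0.15 (limma, adjusted p = 0.496), against -0.06 on the shared slide alone, 0.01 by the second probe, and 0.09 with normexp. It was 0.34 without TBBC 1 and 0.12 without TBBC 3. The log2 ratio of Hk2 to Hk1 within an array was 0.60 higher in TBBC and did not overlap between groups, and with normexp it was 0.36 higher. The exact permutation p was 0.1, the smallest that the design can give, or 0.3 adjusted over the 3 ratios tested.

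Khk, the first enzyme of fructose breakdown, was lower in every treated rat, by an amount that did not pass. It was at 7.85, 7.92 and 7.89 in vehicle 1 to 3 and at 7.49, 7.55 and 7.70 in TBBC 1 to 3. The groups did not overlap, and TBBC 3 was nearest to the vehicle rats. Khk had a log2 fold change of -0.31 ± 0.10, which makes the vehicle level 1.24-fold that of TBBC, with an unadjusted p of 0.0254 and an adjusted p of 0.188 (limma). The second probe, 5.35, 5.30 and 5.38 against 4.88, 4.84 and 5.09, gave -0.41 ± 0.11 and did not overlap either. The value was -0.40 on the shared slide alone and -0.37 to -0.26 with each array left out, and quantile normalization gave -0.44.

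Markers of proximal and of some other cells lay lower beside Khk. Of 14 proximal tubule markers tested, 13 had a lower mean in TBBC and 7 did not overlap, all of them below vehicle (against 15.2% of all transcripts), while 0 passed in limma and 7 had an unadjusted p under 0.05. Their median log2 fold change was -0.35, and their log2 summed level was 11.0 to 11.1 in vehicle rats and 10.6 to 10.9 in TBBC rats. The shift was not shown to be particular to the proximal tubule. For the thick ascending limb the markers' median was -0.50, with 6 of 7 means lower and 4 of 7 not overlapping, all below vehicle. Of the endothelial markers 3 of 7 lay below vehicle without overlap. All 6 podocyte markers had a lower mean, 1 of them without overlap and 0 with an unadjusted p under 0.05 (limma). Principal cell markers had 3 means higher and 3 lower, and those of fibroblasts and smooth muscle 4 higher and 3 lower. In these bulk samples fewer cells of a type and less RNA per cell cannot be told apart. The part of these shifts in the Khk value was not tested.

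The enzymes of glucose synthesis, also expressed in the proximal tubule, gave no shared direction. Fbp1 was at 9.12, 9.07 and 9.04 in vehicle 1 to 3 and at 8.91, 9.24 and 9.16 in TBBC 1 to 3. TBBC 1 lay below and TBBC 2 and 3 above the vehicle rats. Fbp1 had a log2 fold change of 0.03 ± 0.12 (limma, adjusted p = 0.931), within -0.27 to 0.32, and it turned to -0.06 under quantile normalization. The second probe gave -0.11, with all TBBC arrays below all vehicle arrays.

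G6pc1 was at 7.63, 7.57 and 7.41 in vehicle 1 to 3 and at 7.52, 7.01 and 7.34 in TBBC 1 to 3. TBBC 2 was the lowest array, TBBC 3 lay slightly below the vehicle rats and TBBC 1 within their range. G6pc1 had a log2 fold change of -0.25 ± 0.16 (limma, adjusted p = 0.434). It was -0.11 without TBBC 2 and -0.02 on the shared slide alone. Both of its probes had the same sign, the second at -0.24.

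**Figure D2:**
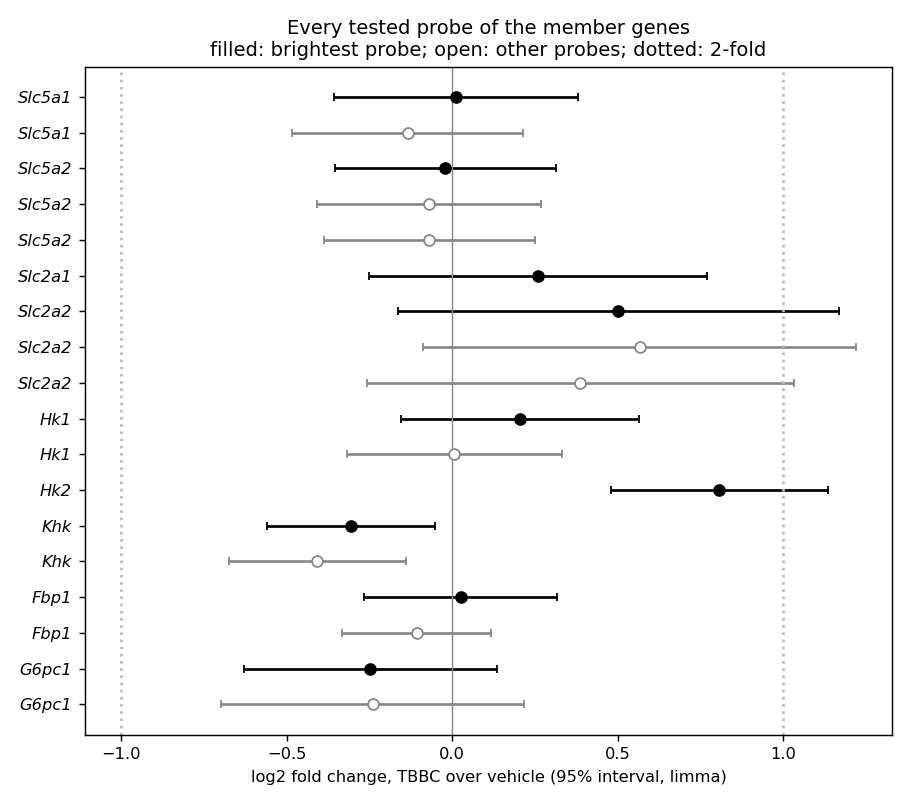
Log2 fold change of TBBC over vehicle for the 18 tested probes of the 9 genes, with 95% intervals from limma; filled points mark the brightest probe of a gene. Both Khk intervals lie below 0 and the Hk2 interval above 0, and the other intervals include 0. In 5 of the 7 genes with more than 1 tested probe, the probes share a sign, Fbp1 and Slc5a1 being the exceptions.

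The genes around these 9 were followed through 6 lists of other sugar transporters, glucose-phosphorylating enzymes, glycolysis, fructose and polyol enzymes, glucose synthesis and regulators. Of 83 listed genes, 76 were tested. One of them passed, Pck2, which is 1.32% against 0.531% of all transcripts, and 28 (36.8%) did not overlap, 21 with TBBC below and 7 above. Over all transcripts 15.2% lay below and 13.1% above. The median over the 76 was -0.08.

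Pck2, the mitochondrial form of phosphoenolpyruvate carboxykinase, which makes phosphoenolpyruvate early in glucose synthesis, rose 3.46-fold. It was at 2.35, 2.55 and 2.45 in vehicle 1 to 3 and at 4.45, 4.08 and 4.19 in TBBC 1 to 3. The groups were far apart. The log2 fold change was 1.79 ± 0.13 (limma, adjusted p = 0.0140). It was 2.00 on the shared slide alone (adjusted p = 0.0270), and the call was lost without any 1 vehicle array (adjusted p 0.0852 to 0.111) and with the replicate number as a block (adjusted p = 0.109). Pck1, the cytosolic form, which was singled out after its values were seen, was at 7.88, 7.95 and 7.87 in vehicle 1 to 3 and at 7.37, 7.99 and 7.74 in TBBC 1 to 3, a log2 difference of -0.20 ± 0.17 (limma, adjusted p = 0.559).

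No other gene of the glucose synthesis list passed. Gpt2, the mitochondrial alanine aminotransferase, was at 0.70 ± 0.18 (limma, adjusted p = 0.119) with groups that did not overlap, and at 0.40 with normexp. Fbp2, the muscle-type fructose bisphosphatase, was at 0.48 ± 0.19 (adjusted p = 0.244), and its groups overlapped. The whole list of 14 had a median of 0.06, with 4 unadjusted p-values under 0.05 (28.6%, against 20.0% of all transcripts).

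Of the other sugar transporters 10 of 13 were tested, 0 passed in limma, 3 had an unadjusted p under 0.05, and the median was -0.46. Of the 10, 4 did not overlap, all with TBBC below (40.0%, against 15.2% of all transcripts). Slc2a13, a proton-coupled inositol transporter, was at -0.78 ± 0.14 (adjusted p = 0.0723) and Slc2a6 at -0.71 ± 0.14 (adjusted p = 0.0827). As the mean of its probes Slc2a6 was at -0.13 (adjusted p = 0.850), so its probes gave unlike values. Slc2a5, the fructose transporter GLUT5, was at 1.46, 1.83 and 1.64 in vehicle 1 to 3 and at 1.30, 1.17 and 0.65 in TBBC 1 to 3. Its groups did not overlap, and the log2 fold change was -0.61 ± 0.20 (adjusted p = 0.180) with all arrays and -0.34 on the shared slide alone. Slc5a10, a sodium-coupled mannose and fructose transporter of the kidney named after its values were seen, was at 2.23, 3.01 and 2.97 in vehicle 1 to 3 and at 2.63, 0.57 and 1.51 in TBBC 1 to 3, where TBBC 1 lay within the vehicle range (adjusted p = 0.284).

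Of the 6 fructose and polyol enzymes, 5 did not overlap between groups, 4 with TBBC below (66.7%, against 15.2% of all transcripts) and 1 above. None passed in limma, and 3 had an unadjusted p under 0.05. Tkfc, the triokinase that acts further down the same route, was at 2.86, 2.94 and 2.85 in vehicle 1 to 3 and at 2.54, 2.17 and 2.07 in TBBC 1 to 3, which is a log2 difference of -0.62 ± 0.15 (limma, adjusted p = 0.109), or -0.34 on the shared slide alone. Sord, which turns sorbitol into fructose, was at -0.60 ± 0.12 (adjusted p = 0.0878). Akr1b1, the aldose reductase that makes sorbitol from glucose, went the other way, at 0.10, 0.34 and -0.0048 in vehicle 1 to 3 and at 1.89, 0.51 and 0.76 in TBBC 1 to 3. TBBC 1 was far above the other treated rats, the log2 fold change was 0.91 ± 0.36 (adjusted p = 0.234), and it was 0.49 without TBBC 1 and 1.74 on the shared slide, where TBBC 1 is the only treated array. Glyctk, at -0.22 ± 0.11 (adjusted p = 0.324), and Aldh2, at -0.23 ± 0.12 (adjusted p = 0.360), were named after their values were seen.

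**Figure D3:**
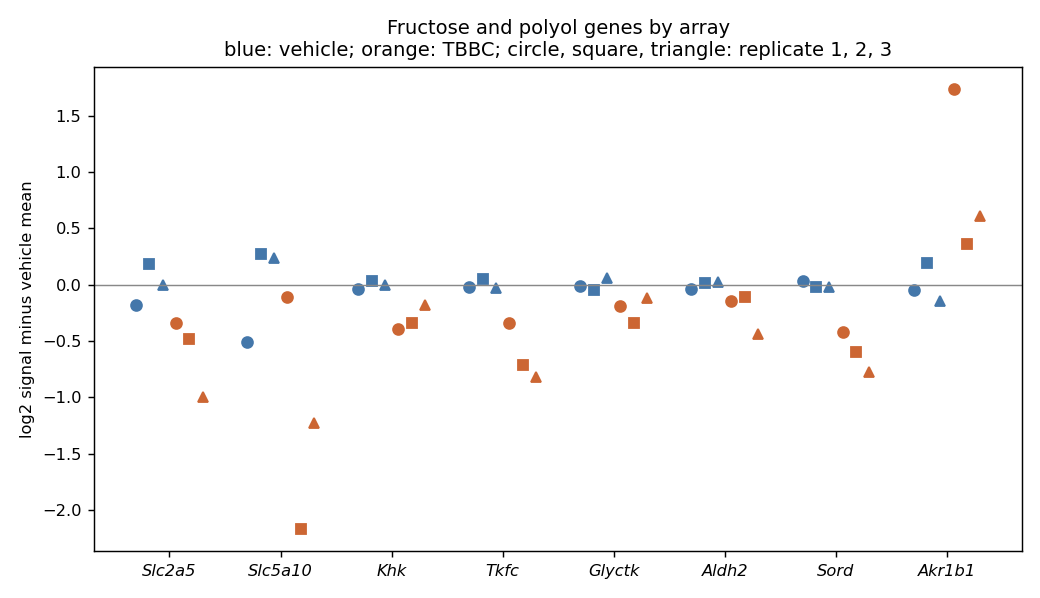
Log2 signal minus the vehicle mean for 8 genes of fructose and polyol handling, 1 point per array (blue vehicle, orange TBBC). Khk, Tkfc, Sord, Glyctk, Aldh2 and Slc2a5 lie lower in all 3 TBBC arrays, Akr1b1 lies higher, and Slc5a10 overlaps; none of the 8 passed the test.

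All 22 glycolysis genes were tested, 0 passed in limma, and the median was -0.10. An unadjusted p under 0.05 was found for 6 (27.3%, against 20.0% of all transcripts). Pklr, the pyruvate kinase of liver and kidney, was at -1.01 ± 0.21 (adjusted p = 0.0888). Pdk2 and Pdk4, kinases that switch off pyruvate dehydrogenase, were at -0.63 ± 0.16 (adjusted p = 0.125) and -0.53 ± 0.14 (adjusted p = 0.130), the latter -0.32 with normexp. Of the 5 genes of glucose phosphorylation 4 were tested, 0 passed and 2 had an unadjusted p under 0.05. Gckr, the protein that holds back glucokinase, was at -0.70 ± 0.16 (adjusted p = 0.107), Adpgk, an ADP-dependent glucokinase, at 0.48 ± 0.15 (adjusted p = 0.158), and Hk3 at -0.75 ± 0.42 (adjusted p = 0.369). Gckr was at -0.41 with normexp. Hk3 was at -0.30 without TBBC 2, and at -0.40 with normexp or on the shared slide alone.

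Of 21 regulators 20 were tested and 0 passed, with a median near 0 at -0.0026. An unadjusted p under 0.05 was found for 4 (20.0%, the same share as over all transcripts). Mlxipl, which encodes the glucose-responsive factor ChREBP, was at 0.24, 0.02 and -0.05 in vehicle 1 to 3 and at -0.64, -1.36 and -1.07 in TBBC 1 to 3. The groups were well apart, and the log2 fold change was -1.09 ± 0.20 (limma, adjusted p = 0.0756), or -0.71 on the shared slide alone. Hnf4a, a proximal tubule factor that is also among the proximal markers, was at -0.57 ± 0.11 (adjusted p = 0.0845). The genes above with the ACGTG letters were at 0.26 (Slc2a1), 0.20 (Hk1) and 0.01 (Slc5a1), all overlapping between groups.

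**Figure D4:**
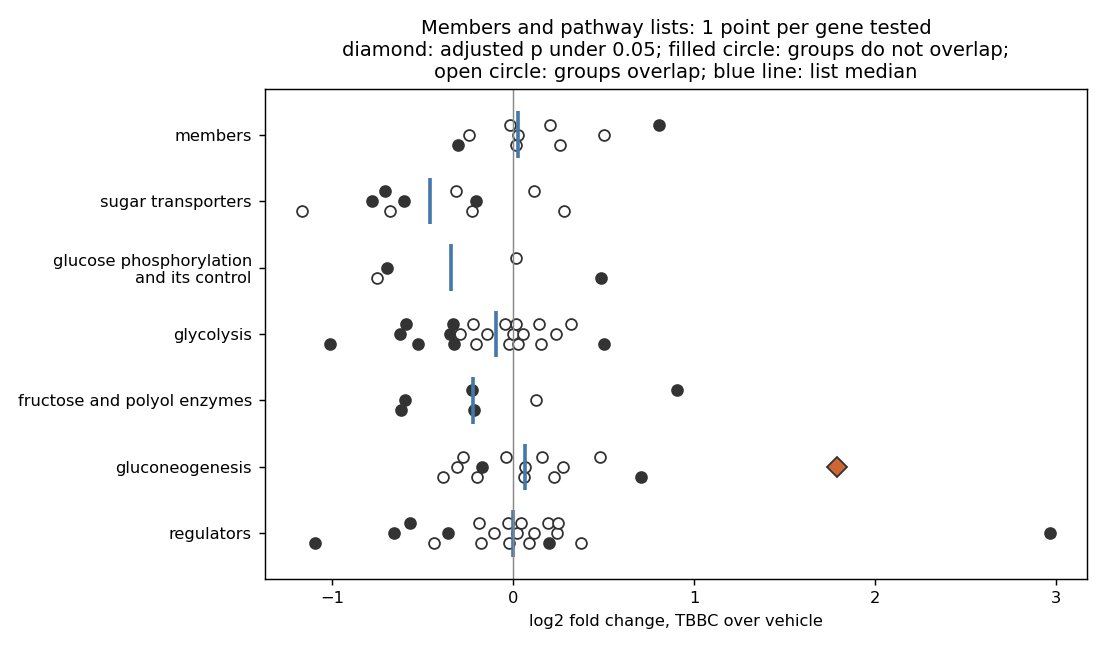
Log2 fold change of TBBC over vehicle for the 9 member genes and the 76 tested genes of the 6 lists, 1 point per gene and a line at each median. The diamond is Pck2, the only gene here with an adjusted p under 0.05, and the transporters' median of -0.46 is the lowest of the lists.

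The patterns most like those of the 3 members with the smallest p were sought among 12297 named genes by Pearson's r over the 6 arrays. For Hk2 they were Mix23 (r = 0.995), Tsn (0.994) and Agpat1 (0.992). For Khk they were Pcdh11x (0.995), Ttc36 (0.992) and Or6c35d (0.991), and for Slc2a2 they were P4ha2 (0.984), Nup62 (0.982) and Ficd (0.981). All arrays share the contrast between groups and the scaling, and 164 genes had an r over 0.95 with Hk2, 103 with Khk and 25 with Slc2a2. The likeness over 6 arrays is therefore a description and singles out no gene.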

How the data were processed

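Spot intensity in the authors' deposited scanner files is the processed signal of Agilent Feature Extraction; the file headers give version 10.7.1.1, and the submitters' processing notes give 10.7. The authors' deposited value table holds a linear ratio; set against the scanner signals, its divisor lies within 0.3% of each array's 75th percentile. Signals of 61537 probes, after leaving out 1439 control spots, were divided by that percentile and put on the log2 scale. Spots flagged as outliers (0 to 9 per array) were left out; none was saturated. Accessions were matched without versions to RefSeq genes of assembly GRCr8, and 33331 probes stayed unnamed; the arrays' headers name another build. Of these probes 41992 were tested as 32956 transcripts, a gene by its brightest probe and an unnamed probe as itself. The comparison used lmFit and eBayes of limma 3.58.1 (R 4.3.3), two-sided, p-values were adjusted by Benjamini-Hochberg, and the threshold was 0.05; errors of fold changes are standard errors. The number of arrays limits the precision. The procedure was tested on simulated data.

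The members and lists were chosen with earlier results of these data known. The genes named are all members, each list gene past the threshold, the 3 smallest p-values of each list, and the 3 genes most like each of 3 members. Genes outside this rule are marked in the text as named after their values were seen. Some items that this rule names are not reported here. Keg1 and Pcx were matched through synonyms. The normexp alternative used median spot and background signals. Slide and replicate number were tried as blocks. Same-numbered arrays had deviations from their group means that correlated at -0.095, 0.033 and -0.074. Differently numbered arrays lay between -0.126 and 0.212. No pairing by number was seen, and 3 arrays per group are too few to exclude it.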

Additional observations from a re-analysis of the deposited data

How the results depend on the processing

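The count of members called was 0 under all 22 alternatives. The count of transcripts called, 175, was 765 with normexp, 52 without a filter, 333 with every probe tested on its own, 1087 with trend and robust eBayes, 48 with slide as a fixed term, 308 on the shared slide alone and 0 with the replicate block (5366 at an unadjusted p under 0.05, limma); with 1 array left out it ran from 6 to 269. The count of pathway genes called, 1, was 5 with normexp, 8 with trend and robust eBayes, 0 with the replicate block and 0 to 2 with 1 array left out, 0 being without vehicle 1, 2 or 3 and 2 without TBBC 1. No pairing by replicate number was seen, and 3 arrays per group are too few to exclude it. What the losses under that block come from was not tested. Signs turned for 4 of the 9 members. Slc5a1 was -0.020 with normexp, -0.062 as the mean of probes, -0.0092 with array weights, -0.18 with slide fixed or the shared slide, -0.020 with slide as a random block, and -0.13 to 0.11 with 1 array left out. Fbp1 was -0.058 with quantile scaling, -0.041 as the mean of probes, -0.16 with slide fixed or the shared slide, -0.0053 with the random block, and -0.042 to 0.12 with 1 array left out. Slc5a2 ran from -0.14 to 0.052 with 1 array left out, and was -0.17 with slide fixed or the shared slide and -0.15 with quantile scaling. Hk1 was -0.060 with slide fixed or the shared slide. The ratio of Slc5a1 to Slc5a2 was -0.0019 with normexp, -0.0079 as the mean of probes, and -0.16 to 0.20 with 1 array left out. The causes were not tested. Hk2 lies close to background, which limits its fold.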

Other observations

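Genes of neighbouring sugar routes were looked at after the comparison had been seen, in lists for glycogen (10 of 10 tested), hexosamine synthesis and use (6 of 8 tested) and galactose and mannose (7 of 7 tested). None passed in limma, and 3 of each list had an unadjusted p under 0.05, against 20.0% of all transcripts. Ugp2, which makes UDP-glucose, was at a log2 fold change of 0.74 ± 0.14 (limma, adjusted p = 0.0797) and Gfpt1, the first enzyme of hexosamine synthesis, at 0.61 ± 0.13 (adjusted p = 0.0960), and in both all TBBC arrays lay above all vehicle arrays. Gys2, the liver-type glycogen synthase, was well above background on 2 of 3 vehicle arrays and on all 3 TBBC arrays, and no fold is given for it. Ogt, which attaches the hexosamine product to proteins, was at -0.40 ± 0.14 (adjusted p = 0.201), and Galm, a galactose mutarotase, at -0.42 ± 0.13 (adjusted p = 0.163), both with TBBC below. Also below were Gnpda1 at -0.40 (adjusted p = 0.144), Mpi at -0.35 (adjusted p = 0.152) and Pgm1 at -0.30 (adjusted p = 0.173). Pmm1, at 0.34 (adjusted p = 0.204), had TBBC above. Over all transcripts 13.1% lay above and 15.2% below without overlap.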
